A study of Mus musculus with 6 samples.

Results

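Integrins are the receptors with which cells hold the extracellular matrix, and 10 of their subunit genes (Itga1, Itga2, Itga3, Itga5, Itga6, Itgav, Itgb1, Itgb3, Itgb4 and Itgb5) were followed among 14729 gene annotations with reads in sorted Mvt1 cells. The members were the annotations whose symbol equals one of these names, grouped by the matrix ligand of the receptor they form. Mvt1, a line from a mouse mammary carcinoma, is labelled as mammary epithelial cancer cells of strain FVB/N and was grown in DMEM with fetal bovine serum, penicillin and streptomycin and given no other treatment. Flow cytometry separated cells without surface CD24 (CD24-) from cells that carry it (CD24+), and messenger RNA was sequenced from 3 plates of either kind. No independent sorts were described, so p-values and SDs measure the spread between plates, and a property of CD24 cannot be told apart from other differences that arose between the sorted groups of this 1 line. In such bulk samples, fewer cells of a type and less RNA per cell cannot be told apart.

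Each receptor is a pair of an α and a β chain that crosses the membrane, and the pair sets the ligand. The α3 and α6 chains bind laminin, the sheet-forming protein of the basement membrane, α1 and α2 bind collagen, and α5 and αv bind the Arg-Gly-Asp (RGD) sequence of fibronectin, vitronectin and related proteins. The β1 chain pairs with α chains of all 3 classes, β4 pairs with α6 in the hemidesmosomes that anchor epithelium, and β3 and β5 pair with αv. Inside the cell the β tails recruit talin, kindlins and the ILK, PINCH and parvin complex, which link the receptor to actin. In the mammary gland, α6 and β1 are surface markers of basal cells.

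The libraries held 9046025 to 25692147 mapped reads, of which 71.7% to 74.3% were annotated to a gene, and CD24+ replicate 1 was the shallowest. Levels are given as read counts scaled to 1e6 gene reads with TMM (CPM), and differences as log2 fold changes of CD24+ over CD24-, so a negative value means less mRNA in CD24+ cells. A gene was called at an adjusted p below 0.05 in edgeR's quasi-likelihood test, adjusted by Benjamini-Hochberg over the 11113 genes tested. Cd24a, the gene of the sorted marker, had 6.99 to 12.1 CPM in CD24- and 72.6 to 85.6 CPM in CD24+ libraries. Among epithelial markers, Krt8, Krt18 and Krt19 were read in all libraries and fell in CD24+ cells (log2 fold changes -1.04, -1.78 and -1.96), while Epcam had 6 reads and Cdh1 2 reads over the 6 libraries. Of 3 basal markers (Krt5, Krt14 and Trp63) none had enough reads to be tested. Of 4 mesenchymal markers, Pdgfrb, Col1a1 and Col3a1 rose (3.79, 1.71 and 3.69) and Vim did not pass the test (0.17), with a summed level of 3604 to 4465 CPM in CD24- and 4274 to 5072 CPM in CD24+ libraries. The part of these marker differences in the values of the integrins was not tested.

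The 10 members moved in different directions. Itga1, Itgb1 and Itgb5 rose in CD24+ cells, Itga2, Itga6, Itgav and Itgb3 fell, and Itga3, Itga5 and Itgb4 did not pass the test. The background was high, since 23.9% of all genes tested were called higher and 22.3% lower, or 46.2% in either direction. For 7 of the 10 members the 3 values of CD24+ libraries did not overlap the 3 of CD24- libraries, beside 57.3% of all genes tested. The members' median log2 fold change was -0.14, beside 0.02 over all genes. All 10 members passed the filter on low counts. Itga1 did so through its CD24+ and Itga2 through its CD24- libraries, the group in which each was higher, so their calls are not free of that filter.

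**Figure D1:**
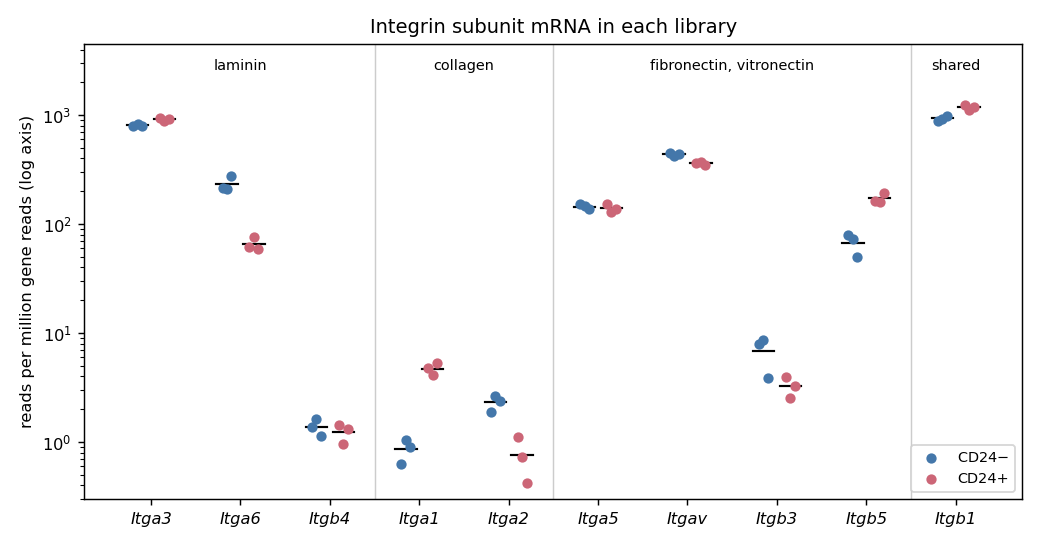
Level of each member in each library, in CPM on a log axis, with CD24- in blue, CD24+ in red and a black line at the mean of 3 libraries. Itga6 and Itgb5 part the groups in opposite directions at more than 50 CPM, and Itga1 and Itga2 do so at under 6 CPM.

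Among the laminin-binding subunits, the mRNA of Itga6 was 3.57-fold lower in CD24+ cells and that of Itga3 and Itgb4 did not pass the test. Itga6, the α6 chain shared by α6β1 and α6β4, had 213, 209 and 277 CPM in CD24- replicates 1, 2 and 3 and 61.1, 75.8 and 58.8 CPM in the CD24+ ones. The lowest CD24- library was far above the highest CD24+ library. The log2 fold change was -1.83 (SE 0.13, adjusted p = 2.43e-06, edgeR). The gene lies on the plus strand of chromosome 2 of GRCm38, from 71745616 to 71858416.

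Itga3, the α3 chain of the laminin receptor α3β1, was the most abundant α member, with 797, 832 and 800.0 CPM in CD24- and 944, 885 and 931 CPM in CD24+ libraries. All CD24+ values were above all CD24- values, yet the difference did not pass the test over all genes (log2 fold change 0.18, 95% interval 0.02 to 0.35, adjusted p = 0.0659, edgeR). It turned to -0.04 (adjusted p = 0.820, edgeR) when each distinct read sequence was counted once. Reads started at 45.3% to 64.0% of all positions of the Itga3 transcript. The highest shares were in CD24+ replicates 2 and 3, the deepest libraries, and their part in that value was not tested. Itga3 lies on the minus strand of chromosome 11, from 95044474 to 95076801.

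Itgb4, the hemidesmosomal partner of α6, was near the limit of detection with 1.37, 1.61 and 1.13 CPM in CD24- and 1.42, 0.96 and 1.31 CPM in CD24+ libraries. These are 91 reads in all, and the groups overlapped. Itgb4 lies on the plus strand of chromosome 11, from 115974709 to 116008412. The interval of its log2 fold change ran from -0.90 to 0.49 (estimate -0.21, adjusted p = 0.611, edgeR), which includes a change of the size seen for Itgb1. The class therefore held 1 subunit that fell and 2 that did not pass the test. Its median log2 fold change of -0.21 is the value of Itgb4 itself, which was -0.04 without CD24+ replicate 2, -0.07 without CD24- replicate 2, -0.33 without CD24- replicate 3 and -0.32 without CD24+ replicate 3, and -0.07 with each distinct read sequence counted once.

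Both α6 and α3 mRNAs can include a cassette exon near their end that encodes the cytoplasmic tail of the A form, and skipping it gives the B form. Reads over exon junctions are largely lost to mapping by exact match, so the skipped form could not be counted. The coding stretch of this exon, exon 25 of 26 in both genes, is shown because it holds the part of α6 and α3 that faces the cell interior. Capitals mark the 12-base run that both exons share, positions 4 to 15, which encodes the start of the membrane-proximal motif conserved among α chains, and the stop codon at the end. The Itga6 exon lies at chr2:71853534-71853663 on the plus strand and the Itga3 exon at chr11:95046449-95046590 on the minus strand (GRCm38, GENCODE M21), and the letters run 5′ to 3′ in the sense of the mRNA.
Itga6 exon 25, 108 coding bases: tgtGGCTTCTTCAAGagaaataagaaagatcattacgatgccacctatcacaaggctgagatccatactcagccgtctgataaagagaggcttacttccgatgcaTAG
Itga3 exon 25, 111 coding bases: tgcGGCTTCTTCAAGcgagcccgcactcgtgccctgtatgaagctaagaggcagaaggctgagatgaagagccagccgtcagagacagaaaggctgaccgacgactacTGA

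Both exons were read in every library. In Itga6 the exon drew 57, 55 and 89 reads in CD24- and 13, 41 and 40 in CD24+ libraries. Its read density relative to the other coding exons was 1.32 ± 0.258 in CD24- and 1.49 ± 0.164 in CD24+ cells (SD, n = 3 each, two-sided exact permutation p = 0.4, where 3 against 3 allow no p below 0.1). In Itga3 the relative density was 1.03 ± 0.136 and 1.11 ± 0.174 (SD, n = 3 each, exact permutation p = 0.6). The groups overlapped for both exons, so the lower Itga6 mRNA of CD24+ cells came with no detectable difference in the read density of its A-form exon at these counts, 295 reads in all.

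The collagen-binding subunits were both scarce and moved in opposite directions. Itga1, the α1 chain, had 0.63, 1.04 and 0.90 CPM in CD24- and 4.72, 4.13 and 5.30 CPM in CD24+ libraries, or 25 reads against 204. It had the largest change of the 10 members, a log2 fold change of 2.44 (SE 0.28, adjusted p = 4.86e-05, edgeR). Itga2, the α2 chain, had 1.90, 2.66 and 2.37 CPM in CD24- and 1.10, 0.73 and 0.42 CPM in CD24+ libraries, or 67 reads against 28. Its log2 fold change was -1.78 (SE 0.36, adjusted p = 0.00227, edgeR). Neither gene overlapped between the groups, and their median of 0.33 describes neither.

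Per kilobase of transcript, Itga2 was above Itga1 in CD24- cells, at 0.325 ± 0.0540 against 0.0783 ± 0.0191 CPM, and below it in CD24+ cells, at 0.106 ± 0.0481 against 0.430 ± 0.0534 CPM (SD over 3 libraries). These levels depend on the annotation. The levels were also taken from reads, whatever their annotation, that match the gene's reference transcript and no other gene. In CD24- cells Itga2 then had 0.723 ± 0.0914 and Itga1 0.0463 ± 0.0336 CPM per kilobase. In CD24+ cells they had 0.281 ± 0.165 and 0.390 ± 0.115, and the ranges of both genes overlapped. Of the reads annotated to Itga1, 4 of 6, 4 of 11 and 2 of 8 matched one of its transcripts in CD24- replicates 1, 2 and 3, and 73.3%, 58.9% and 72.3% did so in the CD24+ ones, so in CD24- replicates 2 and 3 most reads behind its level lay outside its transcripts. Pelo, a gene with a mean of 19.1 CPM, lies inside it on the same strand. With reads that match any transcript of the gene and none of another gene, the log2 fold change of Itga1 was 2.96 (adjusted p = 3.16e-04, edgeR) and that of Itga2 -1.58 (adjusted p = 0.00329, edgeR).

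Itga1 and Itga2 are neighbours on the minus strand of chromosome 13, from 114953096 to 115101964 and from 114833081 to 114932100 (GRCm38), with 20995 bases between them. Their promoters are shown with that of Itgb5 because these are the 3 called members with the largest changes among the 7 members found in RefSeq's promoter table (GRCm38.p6). Each line holds the 250 bases before the annotated start, 5′ to 3′ on the strand of the gene. The motifs searched on both strands were AP-1 (TGANTCA), Sp1 (GGGCGG), E-box (CACGTG) and the TATA box (letters TATAAA), and matches are in capitals.
Itga1, chr13:115101965-115102214, minus strand: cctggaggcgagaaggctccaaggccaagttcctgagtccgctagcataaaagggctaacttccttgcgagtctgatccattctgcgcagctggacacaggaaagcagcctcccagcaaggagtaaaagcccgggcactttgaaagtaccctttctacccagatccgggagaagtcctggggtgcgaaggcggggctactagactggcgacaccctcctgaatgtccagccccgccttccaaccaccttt
Itga2, chr13:114932101-114932350, minus strand: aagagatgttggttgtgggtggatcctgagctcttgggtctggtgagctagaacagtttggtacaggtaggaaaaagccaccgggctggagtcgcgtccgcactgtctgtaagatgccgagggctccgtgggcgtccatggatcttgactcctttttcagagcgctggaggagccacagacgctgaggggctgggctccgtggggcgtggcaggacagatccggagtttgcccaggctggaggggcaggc
Itgb5, chr16:33829415-33829664, plus strand: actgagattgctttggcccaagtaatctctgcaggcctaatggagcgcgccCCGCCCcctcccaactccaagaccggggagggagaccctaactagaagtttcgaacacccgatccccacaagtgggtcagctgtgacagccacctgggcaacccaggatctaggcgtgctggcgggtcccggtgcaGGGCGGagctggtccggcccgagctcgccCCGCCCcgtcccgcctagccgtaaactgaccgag

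Only the Itgb5 window held any of these letters, with 3 matches to GGGCGG or its reverse complement. Of the 32851 promoters of the same length in the table, 32.7% hold this motif, 6.75% the AP-1 letters, 6.02% the E-box and 12.4% the TATA letters. The Itga1 and Itga2 windows, which belong to genes that moved in opposite directions, held none of the 4, with a GC content of 57.6% and 60.8% beside 65.2% for Itgb5.

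Among the fibronectin- and vitronectin-binding subunits, the β5 partner of αv rose, Itgb3 and Itgav fell and Itga5 did not pass the test. Itgb5 had 78.7, 72.6 and 50.3 CPM in CD24- and 163, 159 and 195 CPM in CD24+ libraries, and every CD24+ library was above every CD24- library. It was 2.56-fold higher in CD24+ cells (log2 fold change 1.36, SE 0.15, adjusted p = 6.80e-05, edgeR). Itgb5 lies on the plus strand of chromosome 16, from 33829665 to 33949338.

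Itgb3, the β3 chain that pairs with αv on many migrating cells and with αIIb on platelets, had 8.0, 8.63 and 3.84 CPM in CD24- and 3.94, 2.54 and 3.25 CPM in CD24+ libraries. CD24- replicate 3 lay among the CD24+ values. The log2 fold change was -1.13 (SE 0.31, adjusted p = 0.0114, edgeR), and without CD24- replicate 2 it was -0.92 and missed the threshold (adjusted p = 0.0513, edgeR). The gene lies on the plus strand of chromosome 11, from 104608000 to 104670476.

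Itgav, the αv chain itself, had 454, 421 and 444 CPM in CD24- and 365, 373 and 350 CPM in CD24+ libraries, without overlap. Its decrease was small, to 82.5% of the CD24- level (log2 fold change -0.28, SE 0.07, adjusted p = 0.0110, edgeR). The call was lost without CD24- replicate 1 (-0.26, adjusted p = 0.0647, edgeR) and with each distinct read sequence counted once (-0.19, adjusted p = 0.171, edgeR). Itga5, the α5 chain of the classical fibronectin receptor, had 153, 145 and 137 CPM in CD24- and 153, 128 and 136 CPM in CD24+ libraries. These groups overlapped, with a log2 fold change of -0.06 (95% interval -0.26 to 0.13, adjusted p = 0.585, edgeR). The interval ends just short of the estimate for Itgav and far short of that for Itgb3. Itgav lies on the plus strand of chromosome 2, from 83724397 to 83806916, and Itga5 on the minus strand of chromosome 15, from 103344286 to 103366763.

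Itgb1, the β1 chain common to all 3 classes, was the most abundant member in every library. It had 888, 917 and 992 CPM in CD24- and 1243, 1110.3 and 1194 CPM in CD24+ libraries, which did not overlap. The log2 fold change was 0.34 (SE 0.08, adjusted p = 0.00648, edgeR), the smallest increase of those called. Counted once per distinct read sequence the value was 0.05 (adjusted p = 0.859, edgeR). Reads started at 55.7% to 69.8% of all positions of the Itgb1 transcript, with the highest shares in CD24+ replicates 2 and 3, the deepest libraries, and their part in the lower value was not tested. The gene lies on the plus strand of chromosome 8, from 128685654 to 128733200.

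**Figure D2:**
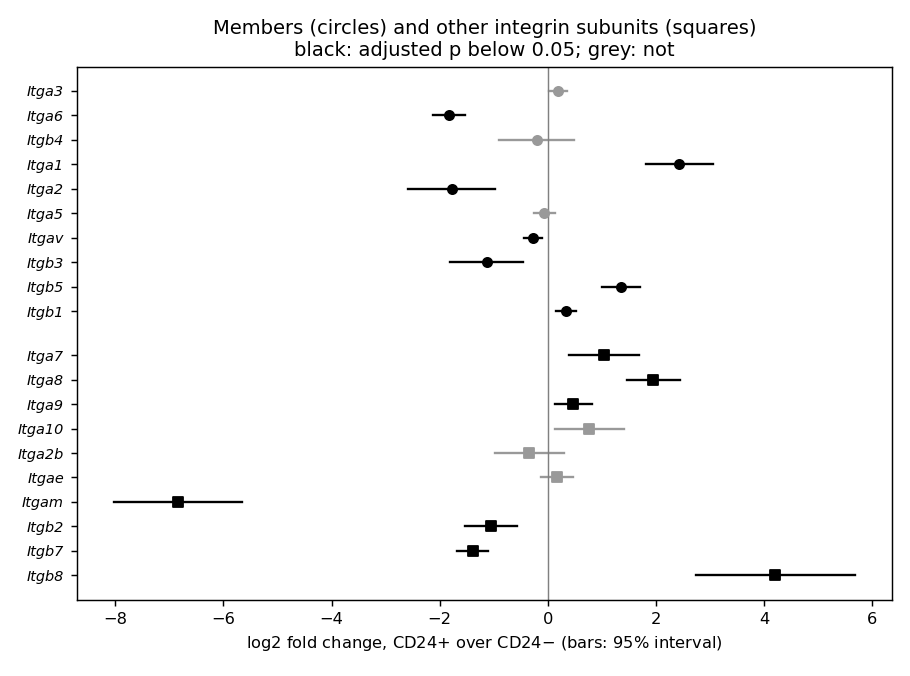
Log2 fold change of CD24+ over CD24- with its 95% interval for the 10 members (circles) and 10 other integrin subunits with enough reads (squares), in black where the adjusted p was below 0.05 and in grey otherwise. Called members run from -1.83 for Itga6 to 2.44 for Itga1, and the reads annotated to Itga9 and Itgae mostly lie outside their transcripts.

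The differences held along the transcripts. Reads that match the reference transcript and no other gene were split into 3 equal stretches from the 5′ end. The log2 ratio of mean CPM for Itga6 was -1.79 in the first, -1.83 in the middle and -1.85 in the last stretch. For Itgb5 it was 1.32, 1.42 and 1.38, and for Itgb1 0.30, 0.33 and 0.40. In each of these stretches the groups did not overlap. Itgav gave -0.30, -0.34 and -0.20, also without overlap. Itgb3 gave -1.01, -1.32 and -1.59 with overlap in each stretch. Itga1, Itga2 and Itgb4 had fewer than 20 reads of one group in some stretch, so no ratio is given for them there.

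**Figure D3:**
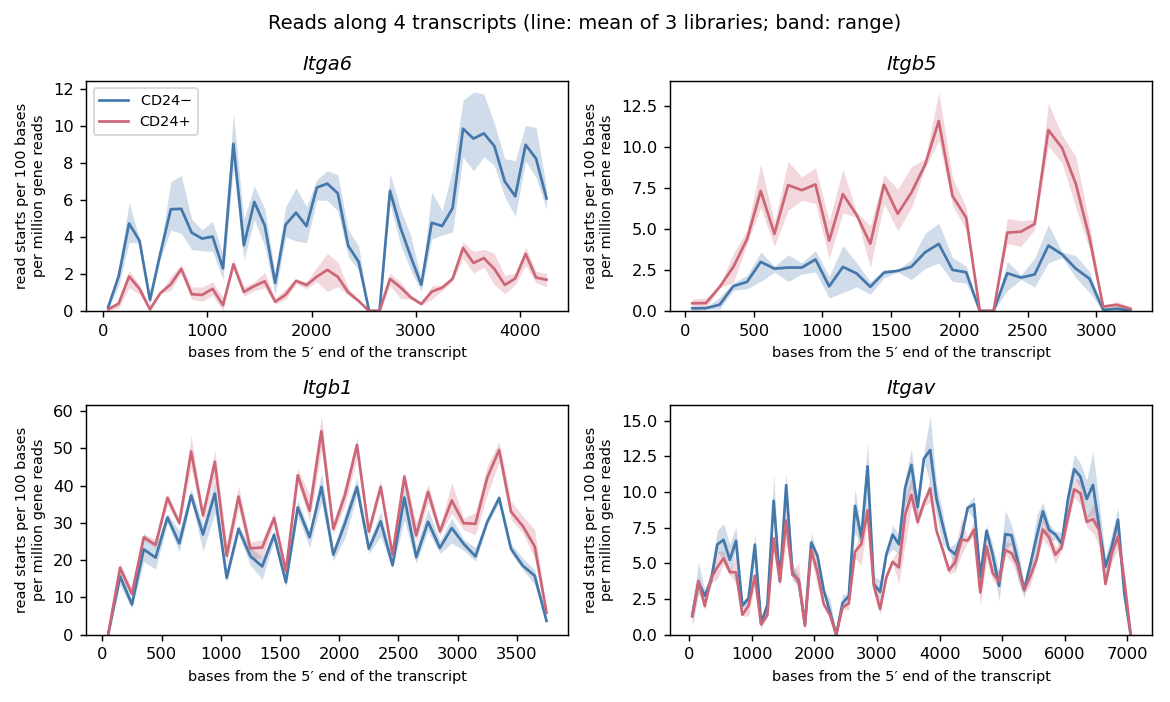
Read starts per 100 bases, in CPM, along the reference transcripts of Itga6, Itgb5, Itgb1 and Itgav, by distance from the 5′ end in bases, with CD24- in blue and CD24+ in red. Lines are means of 3 libraries and bands run from the lowest to the highest library. The red line lies below the blue one along Itga6 and above it along Itgb5, except where no library had a counted read. These gaps are centred at 2550 and 2650 bases of Itga6 and at 2150 and 2250 bases of Itgb5.

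On a per-length scale, Itgb1 and Itga3 led in both groups and the middle of the order changed. The scale compares different genes only roughly, since it divides by the full transcript length although reads over exon junctions are largely lost. Per kilobase, CD24- cells held 244 ± 14.1 CPM of Itgb1, 167 ± 3.91 of Itga3, 62.3 ± 2.35 of Itgav, 54.1 ± 8.78 of Itga6, 33.1 ± 1.83 of Itga5 and 20.5 ± 4.55 of Itgb5 (SD, n = 3). The ranges of Itgav and Itga6 overlapped, and the other neighbours in this order did not. In CD24+ cells Itgb5 stood at rank 3 with 52.4 ± 6.01 CPM per kilobase and Itga6 at rank 6 with 15.1 ± 2.14, while Itgb1 had 310 ± 17.6, Itga3 189 ± 6.43, Itgav 51.4 ± 1.66 and Itga5 31.8 ± 2.88 (SD, n = 3). There the ranges of Itgb5 and Itgav overlapped. Itga1, Itga2, Itgb3 and Itgb4 stayed below 1.5 CPM per kilobase in every library. Their levels are partly set by the annotation. Of the reads that match the reference transcript of Itga1, Itga2 or Itgb3 and no other gene, only 59.9%, 42.5% and 44.1% carried the gene's own annotation. For the other 7 members it was at least 99.4%. By reads of this kind, whatever their annotation, Itgb3 had 2.56 CPM per kilobase in CD24- and 1.05 in CD24+ cells.

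The make-up of the α and β pools differed accordingly. Of the summed per-length level of the 6 α members, Itga3 made up 52.7% ± 1.89 in CD24- and 65.7% ± 1.19 in CD24+ cells, and Itga6 made up 17.1% ± 2.43 and 5.26% ± 0.840 (SD, n = 3 each). Itgav went from 19.7% ± 0.760 to 17.8% ± 0.776, and Itga5 was 10.5% ± 0.752 and 11.0% ± 0.733. With each distinct read sequence counted once, the change of Itgav turned from -1.85 to 1.14 percentage points and that of Itga3 went from 13.0 to 6.81. The part of library depth in these moves was not tested. In the β pool Itgb1 made up 91.7% ± 2.13 and 85.4% ± 1.37, and Itgb5 7.73% ± 1.94 and 14.4% ± 1.38, changes of -6.37 and 6.70 percentage points that were -10.7 and 11.4 with distinct reads. By annotated reads, the groups did not overlap for any of these shares but that of Itga5. An exact two-sided permutation test gave p = 0.1, the smallest that 3 against 3 libraries allow, for every α and β member except Itga5 (p = 0.5), and the adjusted p was 0.12 for the other 5 α members and 0.1 for the β members.

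Summed over the members alone, the β level was higher in CD24+ cells and the α level lower. The α members summed to 316 ± 5.96 CPM per kilobase in CD24- and 288 ± 6.82 in CD24+ cells, and the β members to 266 ± 9.12 and 363 ± 20.04 (SD, n = 3 each). The ratio of α to β went from 1.19 ± 0.0209 to 0.794 ± 0.0318, without overlap (exact permutation p = 0.1, the smallest possible). This ratio covers these 10 mRNAs only and says nothing of protein on the surface. Most of the β sum was Itgb1 (91.7% in CD24- and 85.4% in CD24+ cells). The rise of Itgb1 was not called with each distinct read sequence counted once (0.05, adjusted p = 0.859, edgeR). The sums and the ratio are given for annotated reads only. With Itgb2 and Itgb7, 2 other β chains, added to the β members, the β sum was 450.0 ± 7.21 in CD24- and 442 ± 30.8 CPM per kilobase in CD24+ cells (SD, n = 3 each), and the groups overlapped.

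**Figure D4:**
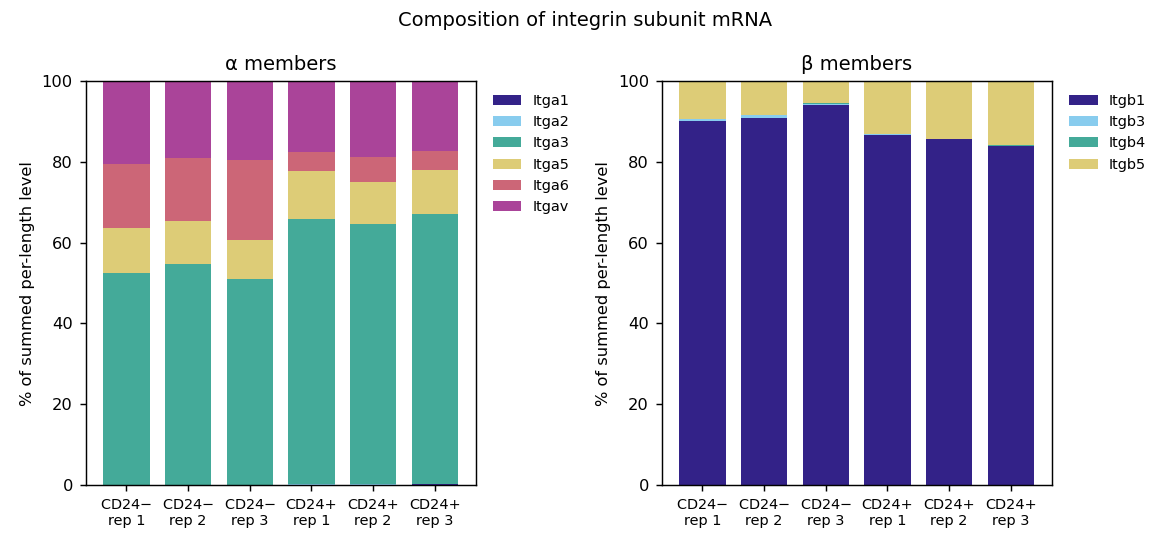
Share of each member in the summed per-length level of the 6 α members (left) and 4 β members (right), in percent, for each library. The Itga6 share lies between 15.5% and 19.9% in CD24- and between 4.76% and 6.23% in CD24+ libraries, and the Itgb5 share lies below 10% in CD24- and above 13% in CD24+ libraries.

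By likeness of pattern, the genes nearest to Itga1, the member with the largest change, were Cntnap1, Zfpm2 and Rgs2. Their distances over the 6 libraries (Euclidean, on log2 CPM centred for each gene) were 0.197, 0.321 and 0.354. Cntnap1 had 2.0 to 2.75 CPM in CD24- and 11.4 to 13.7 CPM in CD24+ libraries.

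Of the 17 other integrin subunits, 16 had reads and 10 were tested, Itgb8 only through its CD24+ and Itgam only through its CD24- libraries. In CD24+ cells Itga7, Itga8, Itga9 and Itgb8 were called higher, Itgam, Itgb2 and Itgb7 lower, and Itga2b, Itga10 and Itgae did not pass. Beside this, 23.9% of all genes tested were called higher and 22.3% lower. Itga8, an RGD-binding α chain that pairs with β1, rose from 18.9, 14.1 and 9.70 CPM to 53.4, 46 and 66.3 CPM (log2 fold change 1.96, SE 0.22, adjusted p = 8.14e-05, edgeR). Itga7, a laminin-binding partner of β1 best known from muscle, rose from 1.90, 2.09 and 3.16 CPM to 6.30, 3.5 and 5.24 CPM (1.04, SE 0.29, adjusted p = 0.0149, edgeR), and each of 4 left-out libraries ended that call. Itgb8, a partner of αv that binds latent TGF-β, had 2 reads in all CD24- libraries and 64 in all CD24+ libraries, a ratio of 21.5 per gene read with a 95% counting interval of 5.70 to 181. This interval treats the summed reads as independent and leaves out the spread between plates. Both CD24- reads were in replicate 2, without which the fitted log2 fold change went from 4.21 to 7.17. Of the β chains that pair mainly with αv, Itgb5 and Itgb8 were thus called upward and Itgb3 downward, the last not without CD24- replicate 2, while Itgb6 had 4 reads in CD24- and 1 read in CD24+ libraries and was not tested.

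Itgb7 and Itgb2 encode β chains known mainly from leukocytes, and both were read at levels like those of called members. Itgb7 fell from 279, 261 and 284 CPM to 126, 105 and 84.5 CPM (log2 fold change -1.39, SE 0.13, adjusted p = 9.84e-06, edgeR). Its α partners are α4 and αE, of which Itga4 had 1 read and Itgae 13 reads that match its transcripts. Itgb2 fell from 270, 278 and 177 CPM to 137, 86.8 and 129 CPM (-1.05, SE 0.21, adjusted p = 0.00324, edgeR). Among its α partners, Itgam had 112 reads in CD24- and 1 read in CD24+ libraries, a ratio of 167 (95% counting interval 29.4 to 6657). That interval, too, leaves out the spread between plates. The single CD24+ read was in replicate 3 and did not match an Itgam transcript, and without that library the fitted log2 fold change went from -6.85 to -8.36. The other α partners had few reads, 4 for Itgal, 5 for Itgax and 1 for Itgad in all. Of the 6 leukocyte markers (Ptprc, Itgb2, Itgal, Itgam, Cd68 and Lyz2), the pan-leukocyte gene Ptprc had 2 reads and Lyz2 3 reads over all libraries, whereas Cd68, a marker of macrophages, fell with Itgb2 and Itgam (log2 fold change -3.03), from 43.4 to 76.2 CPM in CD24- to 6.95 to 9.45 CPM in CD24+ libraries. The summed level of the 6 genes was 224 to 359 CPM in CD24- and 93.7 to 146 CPM in CD24+ libraries, most of it Itgb2 itself. Without the integrins, the sum of Ptprc, Cd68 and Lyz2 was 43.4 to 76.3 CPM in CD24- and 6.95 to 9.61 CPM in CD24+ libraries, nearly all of it Cd68. The part of leukocytes in the fall of Itgb2, Itgb7 and Itgam was not tested.

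Of the reads annotated to Itga9, 0.0252% matched its transcripts, and of those annotated to Itgae 1.14%, so values under these symbols do not measure their mRNAs here. The call under Itga9 was also lost without CD24- replicate 1, CD24- replicate 2 or CD24+ replicate 1 (adjusted p = 0.109, 0.103 and 0.112, edgeR). The platelet partner of β3, Itga2b, had 1.26 to 3.51 CPM over all libraries with overlapping groups. Of the other platelet markers Gp1bb rose (2.79), and Pf4 and Gp9 had too few reads to be tested. Of 4 endothelial markers only Cdh5 was tested, and it fell (-3.23). It passed the filter on low counts only through its CD24- libraries, where it was higher, so its call is not free of that filter. All 4 together had only 1.69 to 2.66 CPM in CD24- and 0.16 to 0.79 CPM in CD24+ libraries. The part of other cell types in these values was not tested.

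The ligands of the receptors did not move as 1 group. Of 7 laminin chains tested, none rose and 3 fell in CD24+ cells (median log2 fold change -0.57), beside 23.9% and 22.3% of all genes. Lamb3, a chain of laminin-332, the ligand of α3β1 and α6β4, went from 111, 121 and 184 CPM to 18.3, 11.2 and 11.2 CPM (-3.43, SE 0.25, adjusted p = 7.70e-06, edgeR). Lamc1, the γ1 chain found in most laminins, and Lama5 fell by 0.62 and 0.28 on the log2 scale.

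All 9 collagen chains tested rose (median 3.26), beside 23.9% of all genes called higher. This class was known from earlier results of these data to be higher in CD24+ cells. Col5a2, a fibrillar chain, rose most among those past the level limit (mean log2 CPM at or above 3), from 7.79, 7.02 and 6.66 CPM to 128, 100.3 and 127 CPM (4.04, SE 0.14, adjusted p = 1.14e-08, edgeR). The collagen-binding members Itga1 and Itga2 together made up 0.127% of the α pool in CD24- and 0.186% in CD24+ cells by annotated reads. By reads that match the reference transcript and no other gene, the shares were 0.257% ± 0.0266 and 0.239% ± 0.0414 (SD, n = 3 each), and the groups overlapped. Itga11, another collagen-binding chain, had 21 reads in all, and Itga10 had 15.2 to 36.1 CPM with overlapping groups (0.77, adjusted p = 0.0515, edgeR). Itga10 was called higher by DESeq2 (adjusted p = 0.0105), with distinct reads (0.84, adjusted p = 0.0339, edgeR) and without CD24+ replicate 2 (1.06, adjusted p = 2.88e-04, edgeR), and had 0.41 without CD24+ replicate 3 (adjusted p = 0.192, edgeR).

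Of 12 RGD ligands tested, 5 rose and 4 fell, beside 23.9% of all genes called higher and 22.3% lower. Edil3, a secreted ligand of αvβ3 and αvβ5, rose most, from 2.11, 2.75 and 0.90 CPM to 23.8, 16.1 and 25.9 CPM (3.47, SE 0.30, adjusted p = 9.75e-06, edgeR). Fibronectin (Fn1) had 176 to 225 CPM in CD24- and 1357 to 1835 CPM in CD24+ libraries, beside an α5 receptor mRNA for which no change was detected. Nov, a CCN-family matrix protein that binds αv integrins, fell most, from 22, 23.0 and 17.9 CPM to 8.03, 6.10 and 5.98 CPM (-1.69, SE 0.16, adjusted p = 1.22e-05, edgeR).

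**Figure D5:**
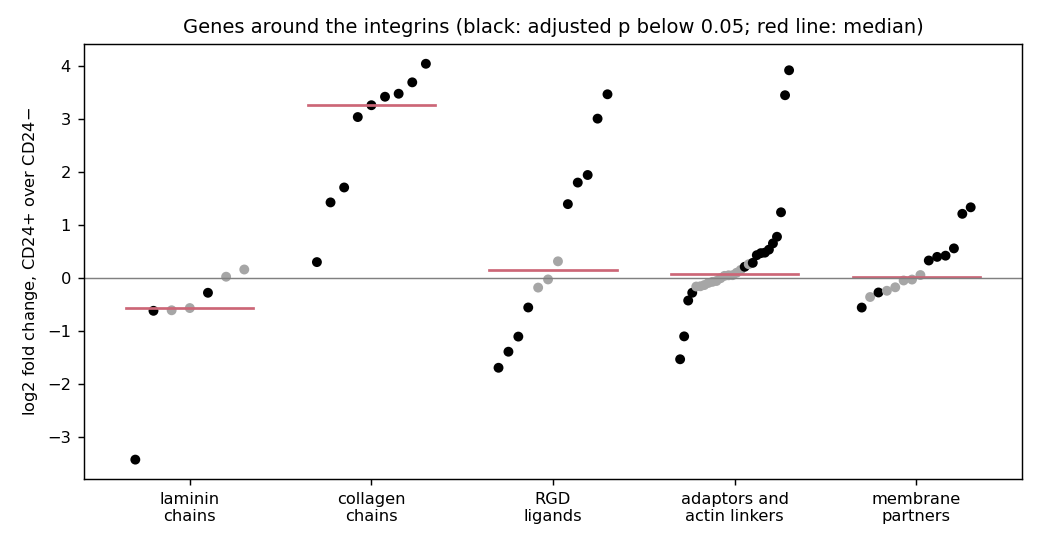
Log2 fold change of CD24+ over CD24- for each tested gene of 5 lists, with black points at an adjusted p below 0.05, grey points otherwise and a red line at the list's median. All 9 collagen chains are above 0 and called, no laminin chain is called above 0, and the adaptors centre near 0 with a median of 0.08.

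Of 28 adaptors and actin linkers tested, 11 rose, 4 fell and 13 did not pass (median 0.08), beside 23.9% of all genes called higher and 22.3% lower. Parvb, the β-parvin that binds ILK, rose most among those past the level limit, from 4.32, 4.84 and 5.08 CPM to 51.7, 54.8 and 49.4 CPM (3.45, SE 0.12, adjusted p = 1.29e-08, edgeR). Among single genes chosen after their values were seen, Parva had a log2 fold change of 0.78, Ilk 0.43, Lims1 0.48 and Rsu1 0.29, each called higher, and Lims2 fell (-1.10). The kindlin gene Fermt2 rose (0.54), and the talins did not pass the test (Tln1 -0.13, Tln2 -0.15). Ptk2b, the kinase Pyk2 related to focal adhesion kinase, fell most, from 97.2, 93.8 and 92.1 CPM to 32.3, 30.9 and 34.6 CPM (-1.53, SE 0.09, adjusted p = 3.01e-07, edgeR), and focal adhesion kinase itself (Ptk2) had 0.10 with an interval from -0.07 to 0.28.

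Of 14 membrane partners tested, 6 rose, 2 fell and 6 did not pass (median 0.01), beside 46.2% of all genes called in either direction. Slc3a2, the CD98 heavy chain that binds β1 tails, rose most, from 169, 164 and 223 CPM to 524, 364 and 513 CPM (1.34, SE 0.16, adjusted p = 1.07e-04, edgeR). The tetraspanins Cd151, which binds α3 and α6 directly, Cd9, Cd82 and Cd63 also rose (0.56, 0.40, 1.21 and 0.33), while the tetraspanin Cd81 had -0.24 and did not pass the test (adjusted p = 0.0549, edgeR). Plaur, the urokinase receptor, fell most, from 172, 172 and 242 CPM to 157, 123 and 120.0 CPM (-0.56, SE 0.15, adjusted p = 0.0132, edgeR), and this call was lost without CD24+ replicate 3 (-0.50, adjusted p = 0.0516, edgeR) and with distinct reads (-0.36, adjusted p = 0.116, edgeR). The hemidesmosomal linkers Plec and Dst did not pass the test (-0.36 and -0.17), and Col17a1 had too few reads to be tested.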

How the data were processed

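Libraries were made with the TruSeq kit, which keeps no strand, and sequenced on an Illumina HiSeq. The authors trimmed 2 nt from each end of the 51-nt reads, collapsed identical reads, kept exact genome matches (mm9, per the submitters' processing notes) and deposited a read count for every 47-nt sequence with its location and annotation, without normalization. The mapping tool is not given in the sources used here. Exact matching loses most reads across exon junctions and over variants, and overlapping genes are uncertain.

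Summing the deposited counts by annotation gave the gene totals. They leave out reads of repeats or small RNA (8.06% to 10.6%) and reads without annotation (16.9% to 20.2%). Genes passing filterByExpr were tested with edgeR 4.0.16 in R 4.3.3 (TMM, quasi-likelihood F test, 3 against 3 libraries, Benjamini-Hochberg adjustment). Gene coordinates, transcript lengths and transcript matches are from GENCODE M21 (GRCm38), and promoters from RefSeq. Exact permutation tests used scipy 1.17.1. The alternatives were DESeq2 1.42.0, limma 3.58.1 on median coverage (quantile normalization, regularizer of 10), other filters and scaling, distinct reads, reads of 1 gene, the replicate block and each library left out. On simulated counts of 11030 genes for CD24+ against CD24-, edgeR recovered 100% of 200 genes changed 4-fold and called 0.0923% of the others. Smaller changes, changes in scarce genes and a share of changed genes as high as in these data were not simulated. Libraries of a group differed by more than sampling noise (chi-square per degree of freedom at least 1.75). Totals of 9046025 to 25692147 reads limit genes under 1 CPM.

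The members and lists were chosen with earlier results of these data known. Named genes were all members, every tested subunit, and in each list the largest called increase and decrease with a mean log2 CPM at or above 3, plus the 3 genes nearest to the member that changed most. Genes named beyond this rule were chosen after their values were seen. The share of splice forms could not be computed, and the read density of the cassette exon took its place. The value of 1 laminin ligand gene is not reported here.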

Additional observations from a re-analysis of the deposited data

How the results depend on the processing

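Of 136 values of the members under the alternatives, 130 had the direction and the call of the reported fit, 5 lost their call and 1 changed sign. The 136 include the values under the minimum of 1 CPM in 3 libraries, which repeat the reported fit and are no separate check. The sign change was that of Itga3 with each distinct read counted once (-0.044, adjusted p = 0.820, edgeR), where Itga9, whose reads are not exonic, also turned (-0.14). The lost calls were those of Itgav, Itgb1 and Itgb3, and under all alternatives the adjusted p ranged from 0.00108 to 0.171 for Itgav, from 8.54e-04 to 0.859 for Itgb1 and from 3.40e-04 to 0.0513 for Itgb3. Itgb1 lost its call with distinct reads and in the median-coverage estimate (0.19, adjusted p = 0.0752, limma), and Itgav with distinct reads (-0.19, adjusted p = 0.171, edgeR) and without CD24- replicate 1. Itga1, Itga2, Itga6 and Itgb5 kept their calls wherever they were tested. The size of the change was less stable. Itga6 had -1.35 with distinct reads and -1.26 in the median-coverage estimate, and Itgb5 0.95 and 0.99. With each library left out, Itga6 ranged from -1.97 to -1.69 and Itgb5 from 1.19 to 1.48. In the median-coverage estimate, where a constant of 10 is added, the log2 fold changes of Itga8, Parvb, Ptk2b, Lamb3 and Col5a2 were 0.41, 0.71, -0.64, -1.22 and 0.59, each still called by limma, and that of Slc3a2 was 0.55 with distinct reads (adjusted p = 0.0416, edgeR). The causes were not tested.

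The count of called genes was 5134, and 3297 in the median-coverage estimate, where 6 of the 10 members could be tested and 1 was called higher and 2 lower. It was 3677 with distinct reads (2136 higher, 1541 lower). With each library left out it ranged from 4097 to 5354, with 3 members called higher in each case and 3 to 4 lower. The median of the collagen-binding subunits was 0.52 with distinct reads and 0.69 with reads of 1 gene, and ranged from 0.18 to 0.48 with each library left out. With distinct reads, the change in share, in percentage points of its pool, was 0.288 for Itga1, -0.105 for Itga2, 6.81 for Itga3, 2.09 for Itga5, 1.14 for Itgav (a change of sign), -10.7 for Itgb1, -0.638 for Itgb3 and 11.4 for Itgb5. With reads that match the reference transcript and no other gene it was -0.142 for Itga2 and -0.687 for Itgb3.

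No pairing of plates by replicate number was detected, with deviations of same-numbered libraries from their group means correlated at 0.0143, -0.251 and -0.310. These values cannot exclude that same-numbered plates were handled together. The replicate block gave 4510 called genes, and no member gained or lost its call, while Itga10 passed, as under DESeq2 and with distinct reads (0.69 in the block, adjusted p = 0.0293, edgeR).

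The minimum of 1 CPM in 3 libraries kept as many genes (11113) as the main filter and gave the members the same values. A share of splice-form reads was not run, because junction reads are lost to exact mapping. Members near 1 CPM (Itga1, Itga2, Itgb4) rest on 91 to 229 reads, and changes smaller than their intervals were not detectable at this depth.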
